A study of Mus musculus with 20 samples.

Results

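Genes of Schwann cells, the glia that wrap peripheral nerves, were followed in 20 RNA-seq libraries of mouse aorta. The 8 genes are Sox10, Foxd3, Erbb3, Gfra3, Cdh19, Mbp, Prx and S100b, chosen by symbol as genes of the glia of perivascular nerves and not by a threshold on their values. They were chosen with earlier results of these data known. All 8 are among the 54532 genes of the count table, and all 8 passed the filter on low counts that left 15543 genes for testing. The libraries hold RNA of the thoracic aorta of C57BL/6J mice in 4 groups of 5 libraries: descending aorta with BAPN, descending aorta with water, ascending aorta with BAPN and ascending aorta with water. BAPN (β-aminopropionitrile) blocks the lysyl oxidases that cross-link collagen and elastin, and both BAPN and water were given for 1 week. No genetic change is labelled in any group, and the age and sex of the mice, the dose of BAPN and whether each library came from a mouse of its own are not given in the sources used here. The p-values below therefore measure the spread between these libraries, which may in part be technical.

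The wall of the aorta carries sympathetic and sensory fibres in its outer layer, and Schwann cells run with them. Small autonomic fibres are mostly wrapped by non-myelinating (Remak) Schwann cells, which hold several axons without building myelin, while myelinating Schwann cells wrap larger axons and make large amounts of myelin protein. Schwann cells descend from the neural crest, keep the transcription factor SOX10 through life, and depend on neuregulin 1 from axons, which is read by a receptor made of ERBB3 and ERBB2.

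The 8 genes lie on 6 chromosomes of GRCm38 (the mm10 build), and all are protein-coding. Sox10 (ENSMUSG00000033006, chr15:79154908-79165240, minus strand) and Foxd3 (ENSMUSG00000067261, chr4:99656299-99658622, plus strand) encode transcription factors of the neural crest and its glia. Erbb3 (ENSMUSG00000018166, chr10:128567523-128589652, minus strand) encodes the neuregulin receptor, and Gfra3 (ENSMUSG00000024366, chr18:34689898-34720387, minus strand) the part of the artemin receptor that binds the ligand. Cdh19 (ENSMUSG00000047216, chr1:110888326-110977584, minus strand) encodes a cadherin of the Schwann cell lineage. Mbp (ENSMUSG00000041607, chr18:82475146-82585637, plus strand) encodes myelin basic protein, which compacts the layers of myelin, and Prx (ENSMUSG00000053198, chr7:27499324-27520214, plus strand) encodes periaxin, which links the Schwann cell surface to the matrix around a myelinated fibre. S100b (ENSMUSG00000033208, chr10:76253853-76261159, plus strand) encodes a calcium-binding protein of glia. Prx shares 300 exon bases with an antisense gene, Gm15541, and whether the counting used strand is not given, so reads of this stretch cannot be told apart. Foxd3 shares 89 exon bases with Gm23366, a miRNA gene on the same strand.

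Library totals ran from 15.7 M to 23.3 M counts, and every gene of the 8 was a low or moderate part of them. The counts per library ran from 55 to 282 for Mbp, from 68 to 189 for S100b, from 16 to 92 for Cdh19, from 29 to 74 for Erbb3, from 11 to 59 for Sox10, from 5 to 46 for Gfra3 and from 0 to 29 for Foxd3, against 373 to 560 for Prx. Levels are given as CPM, counts brought to a common library total with factors from the trimmed mean of M values, with the SD over 5 libraries. The smooth muscle genes summed to between 18890 and 25030 CPM in every library, as belongs to aorta. Apart from region and treatment, the libraries fell into 2 sets by the level of 33 genes marked as pseudogenes. The higher set holds ascending BAPN 1 to 5, descending water 1, 2 and 5, and ascending water 4 and 5, and the lower set holds the other 10 libraries, all 5 of descending BAPN among them. The cause of these sets is not given in the sources used here. Under BAPN the regions and the pseudogene sets therefore coincide, and only the water libraries hold both sets in both regions.

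Per kilobase of exon, Prx and S100b stood highest among the 8 genes and Foxd3 lowest in all 4 groups. Prx had 4.7, 4.75, 4.74 and 4.32 CPM per kb in descending BAPN, descending water, ascending BAPN and ascending water. S100b had 3.05, 3.8, 4.31 and 5.32 CPM per kb in the same groups. Prx was the higher of this pair in 3 groups and S100b in ascending water. Foxd3 had 0.171, 0.182, 0.283 and 0.372 CPM per kb, and the other 5 genes lay between 0.283 CPM per kb (Sox10 in descending water) and 1.34 CPM per kb (Mbp in ascending water). Genes of the myelin sheath itself ranged more widely than the 8. Mag, an adhesion protein of the myelin sheath, had 0.047, 0.0459, 0.0132 and 0.0663 CPM per kb, whereas Pmp22, a myelin gene that many other cells also use, had 137, 146, 137 and 141 CPM per kb.

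**Figure D1:**
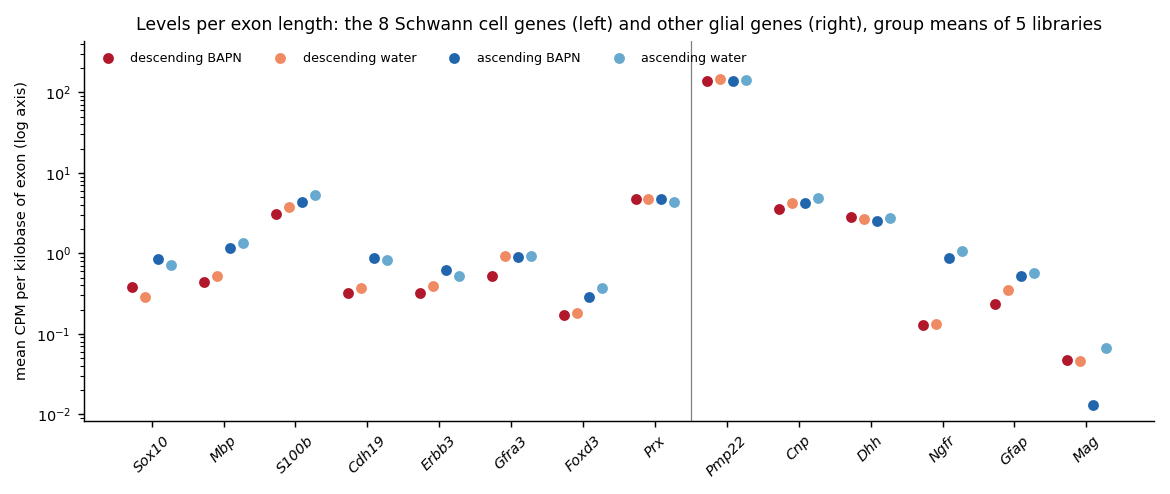
Mean level per kilobase of exon (CPM per kb, log axis) of the 8 genes and of Schwann cell genes outside them, by group. Prx and S100b lie highest among the 8 in each group, Foxd3 lies lowest, and Prx is the gene of the 8 whose 4 group means lie closest together, from 4.32 to 4.75 CPM per kb.

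More of these genes were called between the regions than between the treatments. Descending aorta was compared with ascending aorta within each treatment, in 1 edgeR quasi-likelihood model over all 20 libraries. A gene is called when its Benjamini-Hochberg adjusted p over the 15543 genes is under 0.05. Under water 5 of the 8 genes were called lower in descending aorta (Sox10, Mbp, S100b, Cdh19 and Erbb3), where 27.3% of all tested genes were called and 15.2% were called lower. Under BAPN the same 5 genes and Gfra3 were called lower, 6 of 8, where 29.8% of all tested genes were called and 15.6% were called lower. None of the 8 was called higher in either comparison. Because the 8 were chosen with earlier results of these data known, these shares are a description and no test. The median log2 difference of the 8 genes was -0.88 under BAPN and -0.77 under water, and that of all genes tested was 0.01 under either treatment. In whole tissue, fewer Schwann cells and less of each RNA per Schwann cell cannot be told apart.

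**Figure D2:**
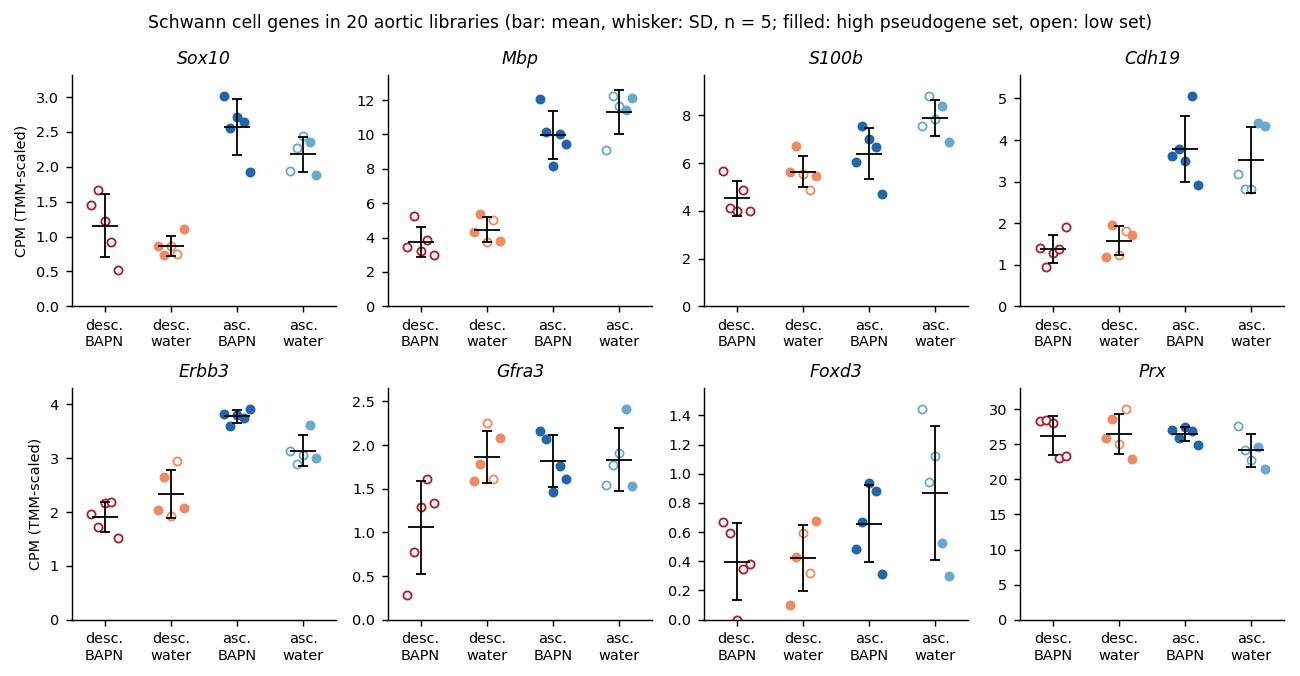
Level (CPM, linear axis from 0) of each of the 8 genes in each of the 20 libraries, with the mean and SD of each group. The descending groups lie below the ascending ones for Sox10, Mbp and Cdh19 without overlap, and the 4 groups of Prx overlap between 21.4 and 30.04 CPM. Of all tested genes, 12% lay wholly lower in descending aorta under BAPN and 11.7% under water.

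Sox10, the transcription factor that defines the lineage, had 1.46, 1.67, 1.23, 0.917 and 0.523 CPM in the descending BAPN libraries, against 3.02, 2.56, 2.71, 2.65 and 1.93 CPM in the ascending BAPN libraries. Under water Sox10 had 0.869, 0.738, 0.859, 0.751 and 1.103 CPM in descending aorta, against 1.94, 2.28, 2.44, 2.36 and 1.88 CPM in ascending aorta. Every descending library lay below every ascending library of the same treatment, as in 12% of all tested genes under BAPN and 11.7% under water. The descending BAPN libraries were the most spread of the 4 groups. The log2 difference of Sox10 was -1.17 (SE 0.23, edgeR adjusted p = 0.000241) under BAPN and -1.33 (SE 0.24, edgeR adjusted p = 8.18e-05) under water. Foxd3, which marks the neural crest and its early glia, averaged 0.398 ± 0.263 CPM in descending BAPN and 0.658 ± 0.265 CPM in ascending BAPN (SD, n = 5 each). It averaged 0.424 ± 0.226 CPM in descending water and 0.865 ± 0.459 CPM in ascending water (SD, n = 5 each). The groups of Foxd3 overlapped under both treatments, 1 descending BAPN library held no count of it, and neither difference was called (log2 -0.72, SE 0.52, adjusted p = 0.333 by edgeR under BAPN; log2 -1.05, SE 0.49, adjusted p = 0.124 by edgeR under water).

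Erbb3, the neuregulin receptor, had 1.96, 1.73, 2.17, 2.18 and 1.52 CPM in the descending BAPN libraries, against 3.83, 3.60, 3.81, 3.75 and 3.92 CPM in the ascending BAPN libraries. Under water Erbb3 had 2.04, 2.65, 1.93, 2.95 and 2.08 CPM in descending aorta, against 3.14, 2.88, 3.06, 3.62 and 3.01 CPM in ascending aorta. The BAPN groups were far apart (12% of all tested genes lay wholly lower in descending aorta under BAPN), and the ascending BAPN libraries were nearly alike. Under water the highest descending library exceeded the lowest ascending library. The log2 difference was -0.99 (SE 0.15, edgeR adjusted p = 9.75e-06) under BAPN and -0.43 (SE 0.15, edgeR adjusted p = 0.0301) under water. Erbb3 under water was no longer called when ascending water 4 was left out (adjusted p = 0.0839), when descending water 1, 3 or 5 was (adjusted p = 0.0753, 0.0869 and 0.0673), and within either pseudogene set (log2 -0.56 and adjusted p = 0.0824 in the higher set; log2 -0.31 and adjusted p = 0.511 in the lower set, edgeR).

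Gfra3, the receptor part that binds artemin, had 0.280, 0.774, 1.29, 1.61 and 1.33 CPM in the descending BAPN libraries, against 2.16, 2.08, 1.46, 1.76 and 1.62 CPM in the ascending BAPN libraries. Under water Gfra3 had 1.58, 1.78, 2.25, 1.61 and 2.08 CPM in descending aorta, against 1.54, 1.77, 1.90, 2.41 and 1.53 CPM in ascending aorta. Descending BAPN 1 and 2 were the lowest of all libraries, with 5 and 13 counts, and 1 descending BAPN library lay above the lowest ascending one. The water groups lay over one another. The log2 difference of Gfra3 was -0.77 (SE 0.28, edgeR adjusted p = 0.0368) under BAPN and 0.02 (SE 0.26, edgeR adjusted p = 0.964, 95% interval -0.51 to 0.55) under water. Under BAPN it was no longer called when descending BAPN 1 or 2 was left out (adjusted p = 0.0889 and 0.0865), when ascending BAPN 1, 2 or 4 was (adjusted p = 0.0863, 0.0765 and 0.0534), and it was -0.73 with adjusted p = 0.23 with a term for the pseudogene sets (edgeR).

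Cdh19, the cadherin of the lineage, had 1.4, 0.953, 1.29, 1.38 and 1.90 CPM in the descending BAPN libraries, against 3.61, 3.78, 3.497, 5.07 and 2.92 CPM in the ascending BAPN libraries. Under water Cdh19 had 1.18, 1.97, 1.24, 1.82 and 1.72 CPM in descending aorta, against 3.19, 2.83, 2.81, 4.41 and 4.34 CPM in ascending aorta. All descending libraries lay below all ascending ones (12% of all tested genes lay wholly lower in descending aorta under BAPN and 11.7% under water). The log2 difference was -1.43 (SE 0.21, edgeR adjusted p = 5.49e-06) under BAPN and -1.15 (SE 0.21, edgeR adjusted p = 8.44e-05) under water.

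Mbp, the myelin protein, had 3.47, 5.24, 3.22, 3.84 and 2.996 CPM in the descending BAPN libraries, against 12.1, 10.1, 8.14, 10.03 and 9.45 CPM in the ascending BAPN libraries. Under water Mbp had 4.35, 5.35, 3.76, 5.04 and 3.801 CPM in descending aorta, against 9.11, 12.3, 11.7, 11.4 and 12.1 CPM in ascending aorta. No descending library reached the lowest ascending library (12% of all tested genes lay wholly lower in descending aorta under BAPN and 11.7% under water), and Mbp had the smallest adjusted p of the 8 genes in both regional comparisons. The log2 difference was -1.42 (SE 0.14, edgeR adjusted p = 1.34e-08), 2.67-fold lower in descending aorta, under BAPN. Under water it was -1.34 (SE 0.14, edgeR adjusted p = 1.7e-08).

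S100b, the calcium-binding protein, had 5.66, 4.11, 3.98, 4.87 and 3.995 CPM in the descending BAPN libraries, against 6.04, 7.57, 6.99, 6.67 and 4.72 CPM in the ascending BAPN libraries. Under water S100b had 5.62, 6.71, 5.53, 4.88 and 5.46 CPM in descending aorta, against 7.57, 8.82, 7.82, 8.39 and 6.86 CPM in ascending aorta. The groups did not overlap under water, where 11.7% of all tested genes lay wholly lower in descending aorta. Under BAPN the lowest ascending library fell among the descending ones. The log2 difference was -0.50 (SE 0.13, edgeR adjusted p = 0.00425) under BAPN and -0.49 (SE 0.13, edgeR adjusted p = 0.00413) under water. S100b is also made by cartilage cells and adipocytes. The cartilage genes summed to between 54.4 and 65.9 CPM in descending BAPN and between 50.7 and 63.9 CPM in descending water, against 111.6 to 157.6 CPM in ascending BAPN and 136.2 to 164.6 CPM in ascending water. The white adipocyte genes ran from 420.5 to 812 CPM, 490.5 to 909.1 CPM, 463.2 to 694.4 CPM and 324.1 to 605.9 CPM in the same 4 groups. Their part in the difference of S100b was not tested.

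Prx, the periaxin gene, did not pass the test in either comparison. It had 28.3, 28.4, 28.0, 23.1 and 23.3 CPM in the descending BAPN libraries, against 27.01, 25.9, 27.4, 26.9 and 24.9 CPM in the ascending BAPN libraries. Under water Prx had 25.9, 28.6, 25.1, 30.04 and 22.9 CPM in descending aorta, against 27.6, 24.1, 22.8, 24.7 and 21.4 CPM in ascending aorta. The libraries of both regions lay over the same range. The log2 difference was -0.01 (95% interval -0.18 to 0.15, edgeR adjusted p = 0.921) under BAPN and 0.14 (95% interval -0.03 to 0.30, edgeR adjusted p = 0.227) under water. Prx is also expressed in endothelium, whose marker genes summed to between 1455 and 1713 CPM in descending BAPN and between 1337 and 1601 CPM in descending water, against 1168 to 1379 CPM in ascending BAPN and 1051 to 1556 CPM in ascending water. Of the 11 endothelial genes 3 were called lower and 3 higher in descending aorta under BAPN, and 3 lower and 1 higher under water, with Kdr (log2 -2.70 and -2.91), Emcn (-2.39 and -2.03) and Cldn5 (-0.84 and -1.09) lower and Vwf (0.87 and 0.64) higher under BAPN and water. Of all tested genes, 15.6% were called lower and 14.2% higher under BAPN, and 15.2% lower and 12.1% higher under water. The part of endothelium in the level of Prx was not tested.

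S100b and Prx are the highest pair per length, and S100b was called between the regions while Prx was not, so their promoters are printed side by side. The sequences are from RefSeq on GRCm38.p6, each from 250 bases before the start site to 50 after it, on the plus strand: S100b at chr10:76253586-76253885 and Prx at chr7:27499074-27499373. Capitals mark the CCAAT word on either strand (ATTGG is its reverse).
S100b: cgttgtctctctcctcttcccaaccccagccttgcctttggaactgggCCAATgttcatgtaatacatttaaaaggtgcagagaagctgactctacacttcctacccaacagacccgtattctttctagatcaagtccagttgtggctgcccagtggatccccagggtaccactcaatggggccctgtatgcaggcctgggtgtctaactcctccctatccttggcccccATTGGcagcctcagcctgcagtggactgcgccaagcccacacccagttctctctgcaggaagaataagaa
Prx: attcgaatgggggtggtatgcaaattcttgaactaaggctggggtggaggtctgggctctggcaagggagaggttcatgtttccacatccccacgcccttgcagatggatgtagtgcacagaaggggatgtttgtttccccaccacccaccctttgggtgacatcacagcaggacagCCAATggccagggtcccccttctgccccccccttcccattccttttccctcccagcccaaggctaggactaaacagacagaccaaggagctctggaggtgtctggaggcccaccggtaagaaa
S100b held 2 CCAAT words and Prx 1, and 37.4% of the 32851 mouse promoters of the same length held at least 1. The words ACAAAG and ACAATG, 2 forms of the core that SOX proteins bind, were in neither promoter on either strand, while 28.6% of all promoters held at least 1 of them. Other forms of this core were not searched. Of the 8 genes, 3 had their promoters searched, and the third, Foxd3, held neither word of either kind. Sox10, Cdh19 and Erbb3 had no entry among the promoters, and Mbp and Gfra3 were left out of the search.

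**Figure D3:**
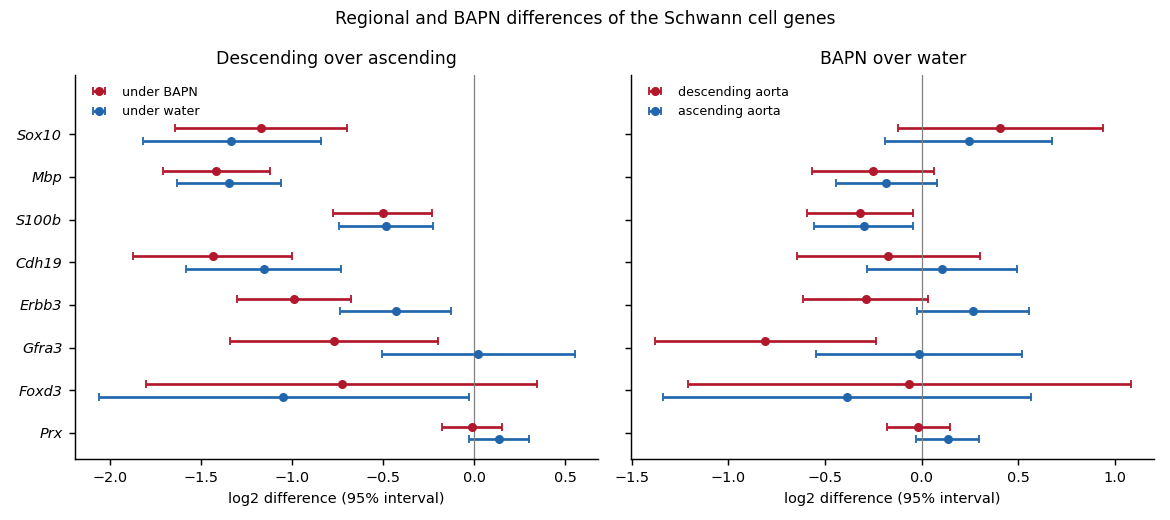
Log2 difference with its 95% interval for each of the 8 genes in the regional comparisons and in the comparisons of BAPN with water (edgeR). In the regional panels 6 genes under BAPN and 5 under water are called below 0, and in the BAPN panels none of the 8 is called.

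How these differences hold within the pseudogene sets bears on each of the genes above. Under water both sets hold libraries of both regions. Sox10 was -1.23 (edgeR adjusted p = 0.00841) in the higher set and -1.46 (edgeR adjusted p = 0.0249) in the lower set, Mbp was -1.39 and -1.32, and Cdh19 was -1.45 and -0.94 (edgeR adjusted p = 0.0476 in the lower set), all on the log2 scale and all called. S100b was -0.37 (edgeR adjusted p = 0.204) in the higher set and -0.63 (edgeR adjusted p = 0.0237) in the lower set. Of all genes tested in these fits, 18.8% were called between the regions in the higher set and 15.2% in the lower set. Under BAPN no set holds both regions, so the region can be set apart from the sets only through the water libraries. With a term for the sets, Sox10 was -1.15, Mbp -1.35, Cdh19 -1.06 and Erbb3 -0.97 under BAPN, each called (edgeR adjusted p = 0.0173, 1.81e-05, 0.00797 and 0.00176). S100b was -0.46 and Gfra3 -0.73, and both lost their calls (edgeR adjusted p = 0.0972 and 0.23). With this term 17.7% of all tested genes were called under BAPN, in place of 29.8%.

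The wider Schwann cell genes were counted in lists that do not hold the 8. Of 20 myelin genes 14 were tested, of which 7 were called lower and none higher in descending aorta under BAPN, and 8 lower and none higher under water, where 15.6% (BAPN) and 15.2% (water) of all tested genes were called lower. Their median log2 difference was -0.44 under BAPN and -0.70 under water. Mal, a lipid raft protein of compact myelin, had 2.88 ± 0.67 CPM in descending BAPN and 2.27 ± 0.65 CPM in descending water, against 11.2 ± 1.3 CPM in ascending BAPN and 11.0 ± 0.96 CPM in ascending water (SD, n = 5 each). Drp2, which binds periaxin at the Schwann cell surface, had 0.519 ± 0.200 and 0.683 ± 0.285 CPM in the descending groups, against 3.19 ± 0.79 and 2.73 ± 0.95 CPM in the ascending groups, in the same order. Drp2 was called lower under both treatments (log2 -2.60 under BAPN and -1.97 under water), where its partner gene Prx was not called. Pmp22 was not among the genes called.

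Of 15 genes of non-myelinating and immature Schwann cells 13 were tested. Under BAPN 7 were called lower in descending aorta and 1 higher, and under water 8 lower and 1 higher, beside the same 15.6% and 15.2% of all genes lower and 14.2% and 12.1% higher, with medians of -0.63 and -0.61 on the log2 scale. Ngfr, the low-affinity neurotrophin receptor, had 0.447 ± 0.151 CPM in descending BAPN and 0.462 ± 0.339 CPM in descending water, against 3.02 ± 0.94 CPM in ascending BAPN and 3.70 ± 0.97 CPM in ascending water (SD, n = 5 each). Gpm6b, a membrane proteolipid, and L1cam, an adhesion molecule of axons and Remak cells, had log2 differences of -1.38 and -1.02 in descending aorta under BAPN, both called. Ncam1, an adhesion molecule that muscle and nerve cells share, was the gene called higher, with 314.4 ± 8.9 and 299.7 ± 24.5 CPM in descending BAPN and water, against 192.6 ± 4.0 and 193.6 ± 7.6 CPM in ascending BAPN and water.

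**Figure D4:**
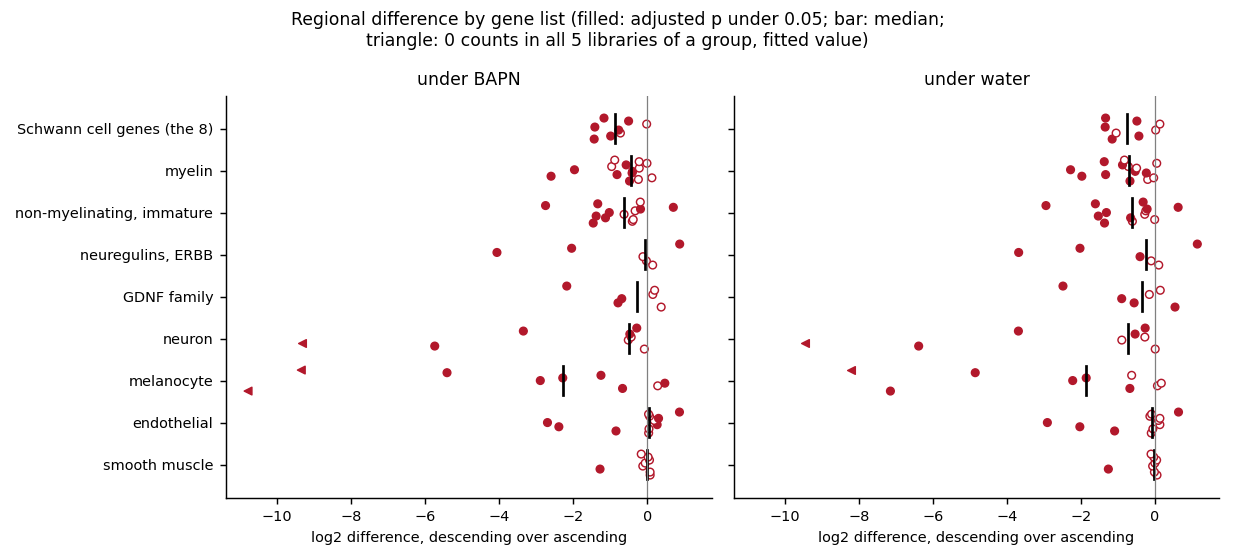
Log2 difference, descending over ascending, of each tested gene by list under BAPN and under water, with the median of each list as a bar and filled points for genes called by edgeR. Triangles mark genes with 0 counts in all 5 libraries of a group, whose fitted value is no bound, and most of the 8 genes and of both Schwann cell lists lie below 0.

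The ligands and partners of the receptors were unevenly placed. Beside the counts below, 15.6% of all tested genes were called lower under BAPN and 15.2% under water, and 14.2% and 12.1% higher. In the neuregulin pathway Nrg1, the ligand on which Schwann cells depend, had 0.126 ± 0.117 CPM in descending BAPN and 0.174 ± 0.131 CPM in descending water, against 2.15 ± 0.85 CPM in ascending BAPN and 2.24 ± 1.1 CPM in ascending water (SD, n = 5 each). Of 6 tested genes of the neuregulin and ERBB list, Nrg1 and Nrg2 were called lower in descending aorta under both treatments and Erbb4 was called lower under water (not within the higher pseudogene set, edgeR adjusted p = 0.187), while Nrg4 was called higher under both. The calls of Nrg4 were not made with the term for the sets under BAPN (edgeR adjusted p = 0.0822) or within the lower set under water (edgeR adjusted p = 0.0726). Erbb2, which signals with ERBB3, had 29.6 ± 2.4, 28.7 ± 1.8, 30.04 ± 2.28 and 30.8 ± 2.5 CPM in descending BAPN, descending water, ascending BAPN and ascending water and was not called. In the GDNF family Ret, the kinase that GFRA3 signals through, had 1.27 ± 0.40 and 1.08 ± 0.39 CPM in descending BAPN and water, against 5.68 ± 0.76 and 6.14 ± 1.71 CPM in ascending BAPN and water. Ret, Gfra1 and Gfra2 were called lower under both treatments, 3 of 6 tested genes, but Gfra1 under water not within the lower pseudogene set (log2 -0.38, edgeR adjusted p = 0.28). Artn, the ligand of GFRA3, had 5.54 ± 0.67 and 7.28 ± 0.75 CPM in descending BAPN and water, against 4.26 ± 0.52 and 4.99 ± 1.53 CPM in ascending BAPN and water. It was called higher under water (log2 0.54, edgeR adjusted p = 0.00669), but not within the lower pseudogene set (edgeR adjusted p = 0.358).

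Genes of neurons and of other cells also differed by region, and the counts below stand beside 15.6% of all tested genes called lower under BAPN and 15.2% under water. Of 18 neuron genes 8 were tested, and 5 of these were called lower in descending aorta under each treatment and none higher. Tubb3, a neuronal tubulin, had 0.349 ± 0.167 and 0.330 ± 0.091 CPM in descending BAPN and water, against 3.65 ± 0.79 and 4.39 ± 1.05 CPM in ascending BAPN and water (SD, n = 5 each). Npy, a peptide of sympathetic neurons, was at 0 in all 10 descending libraries, against 4.35 ± 1.06 and 4.77 ± 0.41 CPM in ascending BAPN and water. Th and Dbh, the enzymes that make noradrenaline, were also at 0 in all descending libraries and averaged at most 0.136 CPM in an ascending group. Melanocytes share the neural crest origin and express Sox10 and Erbb3. Dct, a melanin enzyme, was at 0 in all descending BAPN libraries and averaged 0.046 CPM in descending water, against 12.0 ± 3.5 CPM in ascending BAPN and 7.30 ± 2.48 CPM in ascending water, and Tyrp1 and Slc45a2 were at 0 in all descending libraries. The 12 melanocyte genes summed to between 40.4 and 47.5 CPM in descending BAPN and between 31.5 and 38.7 CPM in descending water, against 58.3 to 80.1 CPM in ascending BAPN and 43.0 to 59.7 CPM in ascending water. Of the 9 tested, 7 were called lower and 1 higher under BAPN, and 6 lower and none higher under water. The 10 cardiomyocyte genes, all tested and all called lower in descending aorta, summed to between 77.1 and 88.7 CPM in descending BAPN and between 74.8 and 88.2 CPM in descending water, against 713.9 to 1338 CPM in ascending BAPN and 468.9 to 1074 CPM in ascending water. The part of these cells in the regional differences of the 8 genes was not tested.

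BAPN was then compared with water within each region. None of the 8 genes was called in descending aorta, where 10.7% of all tested genes were called (6.18% higher and 4.54% lower), and none in ascending aorta, where 6.34% were called (3.44% higher and 2.91% lower; edgeR). At an unadjusted p under 0.05 there were 2 of the 8 in descending aorta, where 23.4% of all genes were, and 1 in ascending aorta, where 20.2% were. DESeq2 and limma-voom each called 1, Gfra3, in descending aorta, where they called 11.8% and 10.3% of all genes, and none in ascending aorta, where they called 7.76% and 6.9%. These shares of the 8 are near or below those of all genes. The median log2 difference of the 8 was -0.21 in descending aorta and 0.05 in ascending aorta, and that of all genes was within 0.01 of 0 in both regions. The BAPN and the regional comparisons share libraries, so they are not independent of each other.

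Gfra3 had the smallest p of the 8 in descending aorta. It averaged 1.06 ± 0.53 CPM with BAPN and 1.86 ± 0.30 CPM with water (SD, n = 5 each), and 4 of the 5 BAPN libraries lay below every water library while the other fell among the lowest water libraries. Its log2 difference was -0.81 (SE 0.28, 95% interval -1.38 to -0.24, edgeR adjusted p = 0.0617). DESeq2 gave -0.82 (adjusted p = 0.0258) and limma-voom -0.98 (adjusted p = 0.0395), and without descending BAPN 4 it was -1 and called (edgeR adjusted p = 0.0326). It was called in 1 of the 20 fits that each left out a library, which ran from -1 to -0.567. With the term for the sets it was -0.783 (edgeR adjusted p = 0.151). Within the lower set it was -0.865 (edgeR adjusted p = 0.323), and neither was called. In ascending aorta Gfra3 averaged 1.81 ± 0.30 CPM with BAPN and 1.83 ± 0.36 CPM with water (SD, n = 5 each), with a log2 difference of -0.02 (95% interval -0.55 to 0.52).

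S100b was the other gene of the 8 with an unadjusted edgeR p under 0.05, in both regions, and its values leaned the same way in each. It averaged 4.52 ± 0.73 CPM with BAPN and 5.64 ± 0.66 CPM with water in descending aorta, and 6.40 ± 1.09 CPM with BAPN and 7.89 ± 0.76 CPM with water in ascending aorta (SD, n = 5 each). The groups overlapped in each region. The log2 difference was -0.32 (SE 0.13, edgeR adjusted p = 0.141) in descending aorta and -0.30 (SE 0.12, edgeR adjusted p = 0.164) in ascending aorta. The mean of the BAPN effects of both regions, a comparison added after these values were seen, was -0.31 for S100b (SE 0.09, edgeR adjusted p = 0.019), the only gene of the 8 called in it, where 17.5% of all genes were called. This mean was fitted without the term for the sets. With that term S100b was -0.29 in descending and -0.33 in ascending aorta (edgeR adjusted p = 0.307 and 0.274). Within the lower set it was -0.21 in descending aorta, and within the higher set -0.25 in ascending aorta (edgeR adjusted p = 0.622 and 0.535).

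The other 6 genes gave intervals that bound rather than exclude a change. Erbb3 was -0.29 (95% interval -0.61 to 0.03) in descending aorta and 0.27 (95% interval -0.02 to 0.56) in ascending aorta on the log2 scale. For Sox10 the 95% interval ran from -0.12 to 0.94 in descending aorta and from -0.19 to 0.67 in ascending aorta, and for Mbp from -0.57 to 0.06 in descending aorta and from -0.45 to 0.08 in ascending aorta. Cdh19 had intervals from -0.64 to 0.30 in descending aorta and from -0.28 to 0.50 in ascending aorta. Prx was the most closely bounded, from -0.18 to 0.15 in descending aorta and from -0.03 to 0.30 in ascending aorta, and Foxd3 the least, from -1.21 to 1.08 in descending aorta and from -1.34 to 0.56 in ascending aorta. In no gene of the 8 did all BAPN libraries of a region lie on 1 side of all its water libraries, as they did in 7.38% of all tested genes in descending aorta and 7.51% in ascending aorta.

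Whether BAPN acted differently in the regions was tested as the difference of its effects, descending minus ascending. None of the 15543 genes was called by edgeR (0%), the 8 included, with 1070 genes (6.88%) and 2 of the 8 at an unadjusted p under 0.05. DESeq2 called 14 genes and limma-voom none. The 2 genes of the 8 were the receptors, Erbb3 (log2 -0.56, SE 0.21, 95% interval -0.99 to -0.12, edgeR adjusted p = 0.58) and Gfra3 (log2 -0.79, SE 0.38, 95% interval -1.57 to -0.01, edgeR adjusted p = 0.715). A difference between the regions in the response of these genes was therefore not shown.

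In both lists of other Schwann cell genes the shares called after BAPN lay near or below the 10.7% of all genes in descending aorta and the 6.34% in ascending aorta. Of the 14 tested myelin genes 1 was called in descending aorta and none in ascending aorta; it was Gldn (gliomedin, a matrix protein of the node of Ranvier), with 19.8 ± 1.9 CPM with BAPN and 24.8 ± 2.4 CPM with water (SD, n = 5 each; log2 -0.32, edgeR adjusted p = 0.0101), a call not made within the lower pseudogene set (edgeR adjusted p = 0.193). Of the 13 genes of non-myelinating and immature Schwann cells 1, Scn7a, a sodium channel of Remak cells, was called higher in descending aorta, a call lost in 13 of the 20 fits that each left out a library, and none was called in ascending aorta. Among the GDNF family genes, 2 of 6 were called lower in each region. Gfra1 in descending aorta and Gfra4 in ascending aorta lost their calls in 13 and 4 of the 20 fits that left out a library, and with the term for the sets (edgeR adjusted p = 0.133 and 0.205). Nrtn, neurturin, a growth factor for autonomic neurons, was called lower in both: 23.6 ± 3.6 CPM with BAPN and 38.4 ± 4.9 CPM with water in descending aorta, and 20.5 ± 3.7 CPM with BAPN and 34.7 ± 4.8 CPM with water in ascending aorta (SD, n = 5 each). Its log2 difference was -0.70 (edgeR adjusted p = 0.000218) in descending aorta and -0.76 (edgeR adjusted p = 0.000161) in ascending aorta. Among the neuregulin and ERBB genes Egfr was called higher in both regions. In descending aorta the call was lost with the term for the sets (edgeR adjusted p = 0.0571) and within the lower set (edgeR adjusted p = 0.13), and in ascending aorta in 6 of the 20 fits that left out a library, without the low-count filter (edgeR adjusted p = 0.0562) and within the higher set (edgeR adjusted p = 0.16). Erbb4, another neuregulin receptor, was called higher in descending aorta, with 15.2 ± 1.3 CPM with BAPN and 10.4 ± 2.1 CPM with water (log2 0.55, edgeR adjusted p = 0.00194). Gap43, a protein of growing axons and of Schwann cells without myelin, was called lower in descending aorta, with 1.96 ± 0.20 CPM with BAPN and 3.26 ± 0.51 CPM with water (log2 -0.74, edgeR adjusted p = 0.0113), but not within the lower pseudogene set (edgeR adjusted p = 0.0964). It was called lower in ascending aorta as well (log2 -0.65, edgeR adjusted p = 0.0336), a call lost in 6 of the 20 fits that left out a library and with the term for the sets (edgeR adjusted p = 0.225).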

How the data were processed

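RNA of mouse aorta was made into sequencing libraries from 1 µg of total RNA, per the labels' protocols. The authors deposited unnormalized read counts for 54532 Ensembl genes, and the 20 per-library files equal the table of the series. The submitters' processing notes name mm10, HTSeq 0.6.1, STAR 2.5 and fastp; their settings and the annotation are not given in the sources used here. Symbols and coordinates are those of GENCODE M21 on GRCm38, which matched 54495 IDs and left 37 unmatched. Region was read from the letter in the library names together with the design text, and treatment from the labels.

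Counts were filtered with edgeR's filterByExpr (minimum count 10, minimum total 15), scaled with TMM factors and fitted in 1 quasi-likelihood model with a coefficient per group (edgeR 4.0.16, R 4.3.3, 16 residual degrees of freedom); the Benjamini-Hochberg adjustment ran over the 15543 genes of each comparison. DESeq2 1.42.0, limma-voom (limma 3.58.1), other scalings and filters, a replicate block, a fit of only the groups compared, a term for the pseudogene sets, fits within each set and leaving out each library were tried as alternatives. The sets were split at the largest gap (1.73, the next 0.506) of the first principal component of 33 pseudogenes with at least 2 CPM; no label names them. The scripts were tested on simulated data. Totals of 15.7 M to 23.3 M counts leave low genes with few counts, and counting error then adds to the spread.

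The 8 genes and the lists beside them were chosen with earlier results of these data known. All 8 are named, and of each list up to 4 tested genes with the smallest p in the comparison; any other gene was named after its values were seen, and some genes counted in the lists are not reported here. In a check of the replicate numbers under BAPN, each descending library correlated best with the ascending library of its own number (r from 0.064 to 0.106). This did not hold for every number in the other comparisons. Whether the numbers pair the libraries is therefore not settled, and the labels do not say. Figures were drawn with matplotlib 3.10.9.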

Additional observations from a re-analysis of the deposited data

Results flagged for a closer look

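Mbp had 9.11 CPM in ascending water 1, and the other 4 ascending water libraries lay between 11.4 and 12.3 CPM. The gap to its nearest neighbour was 0.74 of the range of the group, above the critical value of 0.71 for 5 libraries (Dixon's test). Of 32 groups of 5 libraries examined, 1 was flagged, and chance alone flags about 1 in 20. Without that library the log2 difference of Mbp under water, descending over ascending, was -1.41 (SE 0.14, edgeR adjusted p = 9.87e-09), against -1.34 with it.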

How the results depend on the processing

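The number of the 8 genes called kept within 1.5 times its value under the scalings, filters and tools tried, with these exceptions. For BAPN in descending aorta DESeq2 and limma-voom each called 1 in place of 0, as did the mean of the BAPN effects of both regions (1 there and 1 in ascending aorta, S100b), and leaving out each library gave 0 to 1. For region under water the higher pseudogene set alone called 3, in place of 5. In that fit 18.8% of all tested genes were called, in place of 27.3%. Erbb3 under water was no longer called without the low-count filter (-0.434, adjusted p = 0.129) or in a fit of only the groups compared (-0.433, adjusted p = 0.0674), nor Gfra3 under BAPN in such a fit (-0.781, adjusted p = 0.0778; edgeR). The stricter filter left no value for Foxd3. The cause was not tested, but fits within a set or of the groups compared hold fewer libraries.

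Values that turned sign were all of uncalled genes. For BAPN in ascending aorta Cdh19 (0.11) was -0.0963 with the term for the sets, -0.212 within the higher set and -0.0327 in the mean of both regions; Erbb3 was -0.012 in that mean; Gfra3 was 0.00869 with the replicate block; Foxd3 was 0.287 with the term for the sets and 0.688 within the higher set. For BAPN in descending aorta Cdh19 was 0.0498 with the term and Prx was 0.0582 in the mean. For region under water Gfra3 was -0.122 within the higher set. For the difference of effects the term gave 0.0106 for Mbp, 0.0352 for S100b, 0.146 for Cdh19 and -0.869 for Foxd3, and limma-voom gave -0.11 for Foxd3. Leaving out libraries gave ranges across 0 for Cdh19 (-0.0227 to 0.2) and Gfra3 (-0.0866 to 0.1) for BAPN in ascending aorta, Foxd3 (-0.329 to 0.241) and Prx (-0.0641 to 0.0329) for BAPN in descending aorta, Prx (-0.0441 to 0.0286) for region under BAPN, Gfra3 (-0.0574 to 0.138) for region under water, and Sox10 (-0.0029 to 0.365), Mbp (-0.218 to 0.00856) and S100b (-0.11 to 0.0505) for the difference of effects.

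In none of the comparisons did every same-numbered pair correlate above 0.1: the correlations ran from -0.0458 to 0.0759 and from -0.0278 to 0.167 for BAPN in ascending and descending aorta, from -0.0478 to 0.104 for region under water and from 0.064 to 0.106 for region under BAPN, where all 5 numbers matched best with their own. The replicate block changed no call among the 8 genes.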

Other observations

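Taken over all 20 libraries, Mbp (r = 0.884), Erbb3 (0.864), Cdh19 (0.824), Sox10 (0.75) and S100b (0.75) tracked the mean of the other 7 genes, whereas Foxd3 (0.461), Gfra3 (0.29) and Prx (-0.17) did so less (Pearson's r of log2 CPM, a description with no test). The 20 points share their region and treatment by groups, so differences between groups enter these values. With each group's mean subtracted the values ran from -0.347 for Gfra3 to 0.352 for S100b. The 10 genes outside the 8 with the highest r over the 20 libraries were Axin2 (0.949), Ppl, Sh3tc2, Rragd, Fam19a5, Unc5b, Prnp, Angptl7, Acot7 and Bok (0.933). With group means subtracted they were Tspan14 (0.818), Palld, Dnajc16, Sync, Slc45a3, Ncs1, Gm12592, Tiam2, Tmem198b and Lacc1 (0.705).

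Foxd3 in ascending water ran from 0.943 to 1.44 CPM in the 3 libraries of the lower pseudogene set and from 0.296 to 0.525 CPM in the 2 libraries of the higher set. In the descending groups the library with the least Gfra3 (0.280 CPM, descending BAPN 1) was among those with the most Sox10 (1.46 CPM), and descending BAPN 5, with the least Sox10 (0.523 CPM), had 1.33 CPM of Gfra3.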
